A study of Homo sapiens with 7 samples.

Results

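The genes described here are 47 interferon-stimulated, RNA-sensing and antigen presentation genes, chosen by name from a list and found by Ensembl ID among the 66025 gene IDs of the table. All 47 were found. They comprise 11 RNA sensors with their adaptor and partner enzymes, 5 transcription factors, 23 effectors and 8 genes of MHC class I antigen presentation. RNA-seq was performed in 7 libraries of β-like cells, which had been differentiated to stage 6 in culture from H1, an established human embryonic stem cell line, and sorted by flow cytometry with a dye for insulin-containing cells. The iKD2 line carries a lentiviral shRNA against METTL14 that is switched on by doxycycline (Dox), and the iSCR line carries a scramble shRNA in its place. Libraries of iKD2 cells given Dox (iKD2 Dox+, a, b and c, n = 3) were compared with iKD2 cells without Dox (iKD2 Dox-, b and c, n = 2) and with iSCR cells given Dox (iSCR Dox+, a and b, n = 2). Cells of all 3 groups therefore carry an integrated vector. The iKD2 Dox- cells did not receive the drug, and the iSCR cells received it without the METTL14 shRNA. Both lines are populations selected for the vector, and the labels do not say whether libraries of a group came from separate differentiations, so that p-values measure the spread between these libraries only.

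METTL14 is a subunit of the complex that writes N6-methyladenosine (m6A) on RNA. Cells recognise double-stranded RNA in the cytoplasm through RIG-I (RIGI) and MDA5 (IFIH1), which signal through MAVS on mitochondria to IRF3 and IRF7 and so to the interferon genes. Secreted interferons act on their receptors and, through a complex that holds STAT2 and IRF9, switch on interferon-stimulated genes by a DNA sequence called the interferon-stimulated response element. The editor ADAR and m6A itself are both known to reduce recognition of the cell's own RNA, and in β cells an interferon signature with raised MHC class I is a known feature of islets in type 1 diabetes. These are points of background and not results of these libraries.

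The response element connects most of the effectors, and its letters are therefore shown first. Promoter windows of RefSeq (GRCh38.p14, 250 bases before to 50 after the start site) were available for 37 of the 47 genes, and a window could not be matched for MX2, IFITM2, IRF3, HLA-E, IRF7, OASL, OAS2, USP18, DHX58 and IFIT2. The core GAAANNGAA, searched on both strands with overlapping matches kept, was present in 24 of these 37 genes (64.9%), against 8.11% of all 35116 windows. By class it was found in 16 of 19 effectors, 4 of 8 sensors, 4 of 7 antigen presentation genes and 0 of 3 transcription factors. The gamma-activated site TTCNNNGAA was found in 12 of the 37 genes, against 7.66% of all windows. A match is a description of the letters and not evidence that a factor binds there. Stretches of 30 bases are printed for the sensors IFIH1 and OAS3, for the effectors ISG15, IFI6, IFITM3 and BST2 and for the antigen presentation gene B2M, because the values of these genes recur below. They are read 5′ to 3′ along the strand of the gene, with the response element core in capitals (where it lies on the other strand, the capitals show its reverse complement).
IFIH1: gagaaTTCGCTTTCCTTTTCTGTTTCccgc
OAS3: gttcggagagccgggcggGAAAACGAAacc
ISG15: ctcggGAAAGGGAAACCGAAACTGAAgcca
IFI6: tgcagagtgcaGAAATAGAAactccgacag
IFITM3: gaaactgttgaGAAACCGAAactactgggg
BST2: tctggGAAACTGAAACTGAAaacctaatta
B2M: tctaaGAAAAGGAAACTGAAaacgggaaag

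The IFIH1 stretch lies on the minus strand at chr2:162318824-162318853 and holds 3 overlapping cores. The OAS3 stretch, on the plus strand at chr12:112938444-112938473, ends at the base before the RefSeq start. ISG15 also holds 3 overlapping cores (plus strand, chr1:1013379-1013408). The IFI6 stretch is at chr1:27672267-27672296 (minus strand), that of IFITM3 at chr11:320877-320906 (minus strand), that of BST2 at chr19:17405736-17405765 (minus strand) and that of B2M at chr15:44711368-44711397 (plus strand). In TLR3 and EIF2AK2 the core lay across the start site itself (first base at -3 and -6), and no stretch is printed for them. STAT2, which is described below, had a window without a match.

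Total counts ranged from 14875429 to 20639156 per library. The 12 β-cell markers, which include INS, each had a mean of at least 5 CPM (CPM here is the count scaled to a common library size by the trimmed mean of M-values, TMM), and their summed level was 25749 to 29910 CPM in iKD2 Dox+, 34218 to 37617 in iKD2 Dox- and 40350 to 40520 in iSCR Dox+. INS and CHGA held most of these sums, with means of 12190 and 13127 CPM in iKD2 Dox+. By group mean, IAPP, NKX6-1, NKX2-2 and PCSK1 were not lowest in iKD2 Dox+, and the other β-cell markers were. The summed levels of 6 ductal markers were 921 to 1001, 465 to 576 and 533 to 649 CPM in the same order of groups, and those of 6 mesenchymal markers were 677 to 1064, 268 to 414 and 631 to 671 CPM. Those of 4 alpha-cell markers, which include GCG, were 6390 to 11271, 10763 to 15046 and 11534 to 13023 CPM. For 2 delta-cell markers they were 2081 to 3935, 2303 to 2683 and 1990 to 3773 CPM. For 4 enterochromaffin markers they were 890 to 1040, 1136 to 1240 and 730 to 984 CPM. Leukocyte markers, summed over 8 genes, gave 14.8 to 31.6, 23.2 to 76.0 and 46.6 to 49.1 CPM, with 6 of the 8 below a mean of 5 CPM. CD3E was at 0 in every library and PTPRC at or under 0.195 CPM, while CD68 reached 69.9 CPM in iKD2 Dox- c, CD14 17.3 and LYZ 16.4 CPM in iSCR Dox+ a, and TYROBP 7.16 CPM in iSCR Dox+ b. Fewer cells of a type and less RNA per cell cannot be told apart in such bulk libraries, and the part of these markers in the results was not tested. For METTL14, the targeted gene, the libraries labelled iKD2 Dox+ had 18.7 (a), 16.3 (b) and 49.1 CPM (c), those labelled iKD2 Dox- had 39.4 (b) and 22.6 CPM (c), and those labelled iSCR Dox+ had 36.1 (a) and 32.2 CPM (b). The highest value is thus in a library labelled as knockdown and the groups overlapped, so that METTL14 mRNA does not check the labels, and every group and library below is named as labelled. Its log2 fold change was -0.14 (SE 0.63, adjusted p = 1) against iKD2 Dox- and -0.28 (SE 0.63, adjusted p = 0.963) against iSCR Dox+ (edgeR quasi-likelihood test, Benjamini-Hochberg adjustment over 22926 genes, as for all adjusted p-values here).

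No member passed an adjusted p of 0.05 in any of the comparisons in edgeR. Of the 47 genes, 29 had a mean of at least 5 CPM, 27 were detected in all 7 libraries and 20 were at 0 in at least 1 library. The filter on low counts kept 43. DHX58, OASL, PSMB9 and HLA-C did not pass it. The 29 genes with a mean of at least 5 CPM are all among these 43, and 62.9% of all genes tested reached that level. Of the 43, 16 were at 0 counts in at least 1 library, as were 38.8% of all genes tested, so that the members were close to genes in general in both respects. Per kilobase of annotated exon, the highest mean levels were those of IFI6 (60.0 CPM per kb), ADAR (31.1), IFITM3 (15.1) and MAVS (10.3), while IFIH1 and RIGI were at 2.57 and 2.69 CPM per kb.

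**Figure D1:**
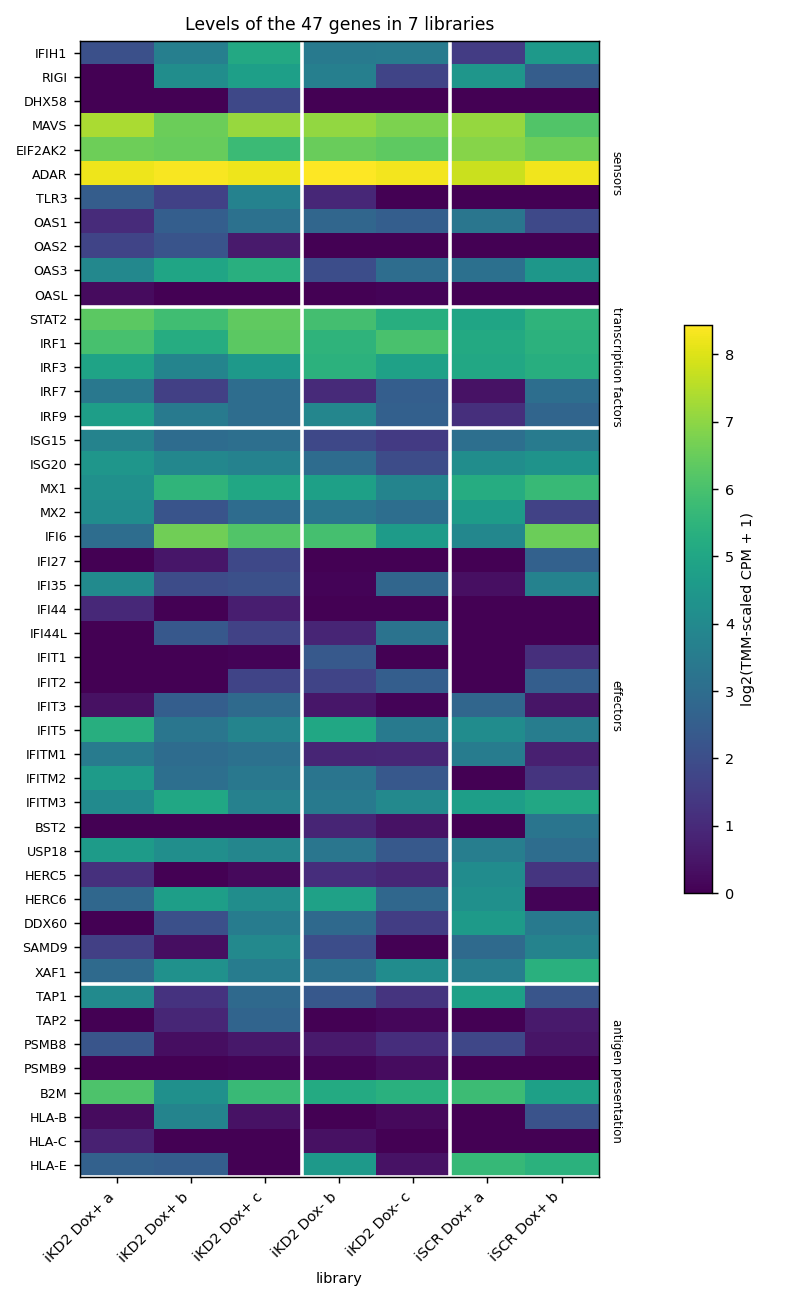
Each row is 1 of the 47 genes, grouped by class, and each column 1 of the 7 libraries. Colour is the level as log2(TMM-scaled CPM + 1), from dark (0) to yellow. ADAR, MAVS and EIF2AK2 are high in all 7 libraries, whereas most IFIT genes and most MHC genes are at or near 0 in several.

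The first comparison, iKD2 Dox+ against iKD2 Dox-, asks what Dox changes within the knockdown line. None of the 43 genes passed an adjusted p of 0.05, as against 0.0393% of all genes tested, and DESeq2 and limma voom also called 0 (1.07% and 0.0349% of all genes in these tools). At an unadjusted p of 0.05, 1 gene was higher in iKD2 Dox+ (OAS3) and 0 were lower, against 2.04% and 1.67% of all genes. The median log2 fold change of the 43 genes was 0.65, with 30 positive and 13 negative, and that of all genes was 0.01. By class the median was 0.66 for 9 sensors, 0.56 for 5 transcription factors, 0.65 for 23 effectors and 1.15 for 6 antigen presentation genes.

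The second comparison, iKD2 Dox+ against iSCR Dox+, asks what the METTL14 shRNA changes where both lines receive Dox. None passed an adjusted p of 0.05 in edgeR (0.0262% of all genes did), 0 in limma voom (0.0174%), and 2 of 41 with an adjusted p in DESeq2, TLR3 and IFITM2, where that tool called 3.91% of all genes. At an unadjusted p of 0.05, 3 genes were higher in iKD2 Dox+ (TLR3, STAT2 and IFITM2) and 1 was lower (BST2), against 3.94% and 2.78% of all genes. TLR3 passed the filter on low counts only through iKD2 Dox+, and BST2 only through control libraries. The filter thus favoured the directions of TLR3 and BST2, so that their entries, in DESeq2 as well, support no difference. Each of the 4 lost this threshold when some single library was left out: TLR3 without iKD2 Dox+ c or either iSCR Dox+ library, STAT2 in all cases but without iKD2 Dox+ b or iSCR Dox+ b, IFITM2 in all but without iKD2 Dox- c or iSCR Dox+ b, and BST2 without any iKD2 Dox+ library or iSCR Dox+ b. The median log2 fold change was 0.19 for the 43 genes, with 26 positive, and 0.08 for all genes. The class medians were 0.35 for sensors, 0.68 for transcription factors, -0.19 for effectors and 0.10 for antigen presentation. The 2 comparisons share the 3 iKD2 Dox+ libraries.

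The last comparison sets the controls against each other. Between iKD2 Dox- and iSCR Dox+, 0 genes passed an adjusted p of 0.05 in edgeR, DESeq2 and limma voom, against 0.0131%, 2.13% and 0.00872% of all genes. At an unadjusted p of 0.05, 0 of the 43 were higher or lower, while 2.66% and 1.79% of all genes were. The median was -0.49 (all genes 0.04), with 29 of 43 negative, and it was -1.11 for effectors and -2.08 for antigen presentation, where the fold changes of all 6 tested genes were negative. These class medians moved with the processing. Over the alternatives, the effector median ran from 0.23 to 1.29, from -0.66 to 0.23 and from -1.36 to -0.07 in the 3 comparisons, and that of antigen presentation from -0.01 to 2.88, from -1.09 to 0.91 and from -2.30 to -0.60.

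**Figure D2:**
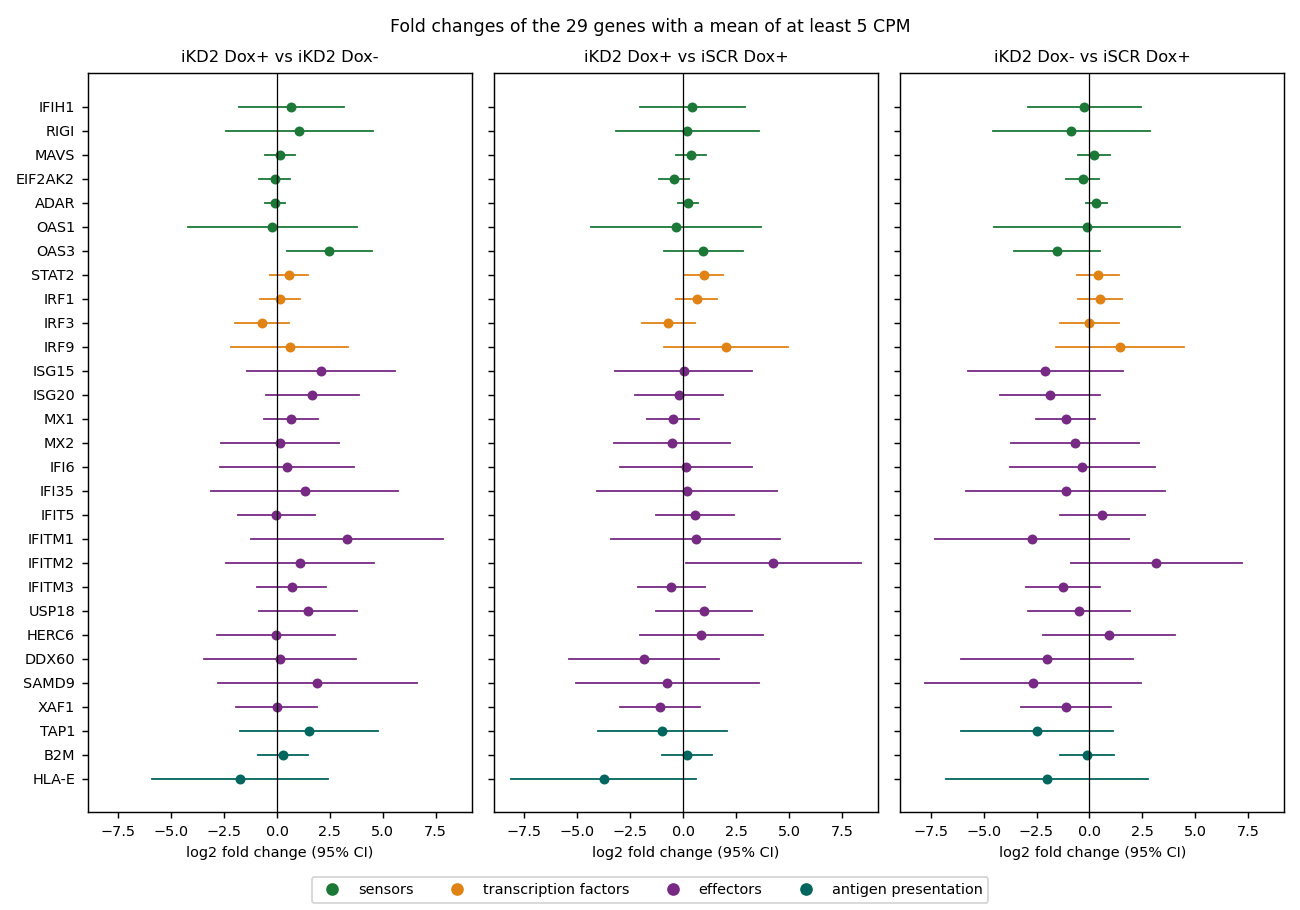
Points are log2 fold changes and lines their 95% confidence intervals for the 29 genes with a mean of at least 5 CPM, in each of the 3 comparisons, on one scale and coloured by class. ADAR, EIF2AK2 and MAVS have the short intervals, all crossing 0, and OAS3 against iKD2 Dox-, STAT2 and IFITM2 against iSCR Dox+ are those whose interval excludes 0.

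Whether all 3 iKD2 Dox+ libraries lay outside the range of the 4 controls was also counted. TLR3, OAS2 and USP18 were above all controls, 3 of 43 genes, and 0 were below. Among all genes tested, 3.47% were above and 2.83% below. OAS2 was at 0 in all controls and TLR3 in 3 of them, so that both passed the filter only through iKD2 Dox+, the group where they are high, and the count is a description that supports no difference.

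Of the sensors, ADAR had the lowest CV over the 7 libraries. ADAR edits adenosine to inosine in double-stranded RNA. Given here and below in the order of the library letters, its levels were 297, 326 and 302 CPM in iKD2 Dox+, 346 and 315 CPM in iKD2 Dox-, and 219 and 308 CPM in iSCR Dox+. Its mean was 308 ± 15.6 CPM (SD, n = 3) in iKD2 Dox+, and its CV over the 7 libraries was 13.3%. The log2 fold change was -0.10 (SE 0.22, adjusted p = 1) against iKD2 Dox- and 0.23 (SE 0.22, adjusted p = 0.848) against iSCR Dox+, and it was 0.33 (SE 0.24, adjusted p = 0.839) between the controls. The 95% interval against iKD2 Dox- ran from 0.678 to 1.28-fold.

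EIF2AK2 encodes PKR, the kinase that stops translation when it binds double-stranded RNA. Levels were 94.8, 88.4 and 52.6 CPM in iKD2 Dox+, 89.2 and 81.3 CPM in iKD2 Dox-, and 118 and 94.6 CPM in iSCR Dox+. The lowest value was that of iKD2 Dox+ c and the highest that of iSCR Dox+ a. Both iSCR Dox+ values were above those of iKD2 Dox-, and iKD2 Dox+ overlapped with both groups. Its log2 fold changes were -0.12 (SE 0.34, adjusted p = 1) and -0.44 (SE 0.34, adjusted p = 0.755) against iKD2 Dox- and iSCR Dox+, and -0.32 (SE 0.38, adjusted p = 0.975) between the controls. The intervals ran from 0.562 to 1.51-fold and from 0.451 to 1.21-fold for the comparisons of iKD2 Dox+. MAVS, the mitochondrial adaptor of RIG-I and MDA5, was at 164, 93.4 and 141 CPM in iKD2 Dox+, 134 and 108 CPM in iKD2 Dox-, and 138 and 70.6 CPM in iSCR Dox+, with a CV of 26.5% and overlapping groups.

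IFIH1 (MDA5), the sensor of long double-stranded RNA, was spread widely within iKD2 Dox+ and within iSCR Dox+. Levels were 3.17, 11.4 and 33.5 CPM in iKD2 Dox+, 9.84 and 10.3 CPM in iKD2 Dox-, and 1.83 and 21.9 CPM in iSCR Dox+. Its iKD2 Dox+ and iSCR Dox+ libraries both included a low and a high value. The log2 fold changes were 0.66 (SE 1.2, adjusted p = 1), 0.43 (SE 1.19, adjusted p = 0.978) and -0.24 (SE 1.29, adjusted p = 1) in the 3 comparisons in the order above. RIGI, which recognises RNA ends with a triphosphate, was at 0, 16.7 and 26.4 CPM in iKD2 Dox+, 11.4 and 2.34 CPM in iKD2 Dox-, and 20.4 and 4.61 CPM in iSCR Dox+. A count of 0 allows up to 3 counts, so that the 0 of iKD2 Dox+ a lies well below the other libraries of its group. Its log2 fold changes were 1.06 (SE 1.64, adjusted p = 1), 0.20 (SE 1.59, adjusted p = 0.997) and -0.86 (SE 1.75, adjusted p = 1). Against iKD2 Dox- the 95% interval of RIGI ran from 0.187 to 23.1-fold and that of IFIH1 from 0.283 to 8.86-fold, so that the intervals hold both a several-fold rise and a several-fold fall.

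OAS3 was the sensor with the lowest p against iKD2 Dox-. The OAS enzymes make 2-5A, which activates RNase L, when they bind double-stranded RNA. OAS3 was at 14.4, 30.0 and 38.7 CPM in iKD2 Dox+, 3.02 and 7.03 CPM in iKD2 Dox-, and 7.72 and 21.1 CPM in iSCR Dox+. All iKD2 Dox+ libraries were above both iKD2 Dox- libraries, but iSCR Dox+ b was above iKD2 Dox+ a. Without iKD2 Dox+ b, iKD2 Dox+ c or iKD2 Dox- b, OAS3 no longer passed an unadjusted p of 0.05. The log2 fold change was 2.46 (SE 0.96, unadjusted p = 0.0184, adjusted p = 1) against iKD2 Dox-. The same gene gave 0.94 (SE 0.90, adjusted p = 0.838) against iSCR Dox+ and -1.52 (SE 0.98, adjusted p = 0.826) between the controls. OAS1 was at 1.08, 4.74 and 7.84 CPM in iKD2 Dox+, 5.94 and 4.68 CPM in iKD2 Dox-, and 8.94 and 2.61 CPM in iSCR Dox+, and its groups overlapped.

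TLR3, the endosomal receptor for double-stranded RNA, and OAS2 were detected almost only in iKD2 Dox+. TLR3 was at 4.67, 2.12 and 12.4 CPM in iKD2 Dox+, 0.926 and 0 CPM in iKD2 Dox-, and 0 in both iSCR Dox+ libraries. Since iSCR Dox+ was at 0, the mean level of TLR3 in iKD2 Dox+ was at least 31.6-fold higher, computed against 3 counts per library (unadjusted p = 0.0323, adjusted p = 0.699). This bound does not hold for iKD2 Dox+ a or b alone. OAS2 was at 2.33, 3.62 and 0.515 CPM in iKD2 Dox+ and at 0 in all 4 controls. By group mean it was at least 13.9-fold and 10.7-fold higher than iKD2 Dox- and iSCR Dox+, which does not hold for iKD2 Dox+ c alone. Its unadjusted p was above 0.05 in both comparisons. Of the remaining sensors, DHX58 (LGP2) was at 2.57 CPM in iKD2 Dox+ c and at 0 elsewhere, and OASL did not exceed 0.179 CPM.

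**Figure D3:**
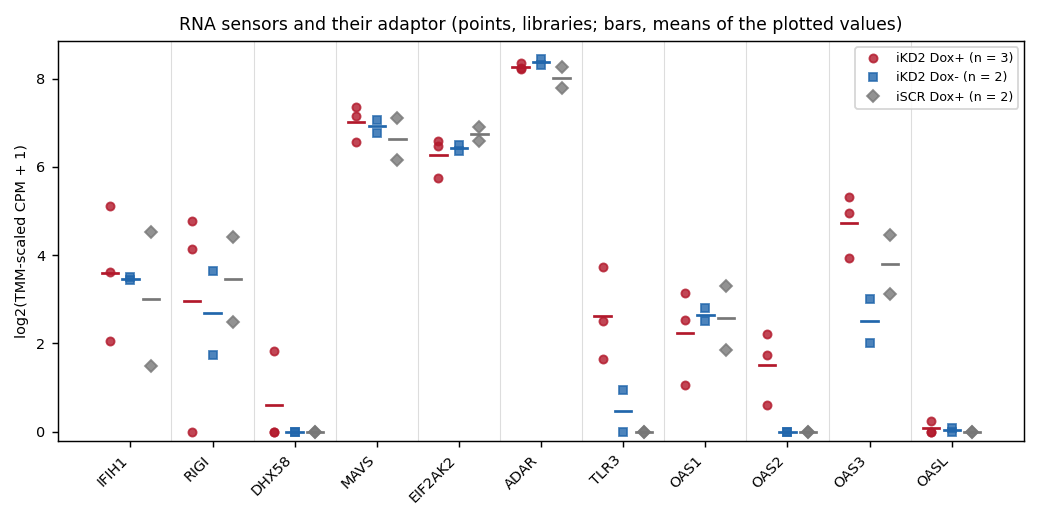
Levels of the 11 sensors as log2(TMM-scaled CPM + 1), with 1 point per library, a colour and a symbol per group, and a bar at the mean of the plotted values. ADAR, MAVS and EIF2AK2 lie close together in the 3 groups, IFIH1 and RIGI spread widely within groups, and TLR3 and OAS2 are at or near 0 in the controls.

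Of the transcription factors, STAT2 was the one that passed an unadjusted p of 0.05. STAT2 carries the signal of type I and type III interferons to the nucleus. Levels were 78.8, 56.5 and 83.1 CPM in iKD2 Dox+, 60.1 and 38.4 CPM in iKD2 Dox-, and 30.4 and 43.9 CPM in iSCR Dox+. Every iKD2 Dox+ library was above both iSCR Dox+ libraries, while iKD2 Dox- b was above iKD2 Dox+ b. The log2 fold change against iSCR Dox+ was 0.97 (SE 0.44, unadjusted p = 0.0392, adjusted p = 0.699). IRF9, its DNA-binding partner, was at 25.8, 9.86 and 7.09 CPM in iKD2 Dox+, 13.8 and 5.01 CPM in iKD2 Dox-, and 1.22 and 5.75 CPM in iSCR Dox+. All iKD2 Dox+ values of IRF9 were also above those of iSCR Dox+, and those of iKD2 Dox- overlapped them.

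IRF1, an interferon-induced activator of MHC class I genes, was at 62.2, 36.8 and 78.7 CPM in iKD2 Dox+, 43.5 and 63.7 CPM in iKD2 Dox-, and 33.9 and 42.2 CPM in iSCR Dox+. IRF3, the factor that MAVS signalling activates by phosphorylation, was at 28.7, 12.9 and 22.6 CPM in iKD2 Dox+, 42.4 and 27.2 CPM in iKD2 Dox-, and 32.1 and 37.8 CPM in iSCR Dox+. For IRF1, iKD2 Dox+ overlapped with both controls. IRF3 was higher in both iSCR Dox+ libraries than in all iKD2 Dox+ libraries and overlapped otherwise, without passing the unadjusted threshold. IRF7, which amplifies interferon transcription, had a mean of 4.58 CPM and ranged from 0.339 to 9.39 CPM.

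No effector passed the unadjusted threshold against iKD2 Dox-. IFI6, an interferon-induced protein of mitochondria and the endoplasmic reticulum, had the highest mean level per kilobase and was among the most uneven of the abundant genes. Levels were 7.06, 96.3 and 70.1 CPM in iKD2 Dox+, 60.3 and 23.5 CPM in iKD2 Dox-, and 13.9 and 91.7 CPM in iSCR Dox+. Values above 90 CPM and below 15 CPM thus occurred in iKD2 Dox+ as well as in iSCR Dox+. MX1, a GTPase that blocks viral replication, was at 18.0, 44.6 and 31.6 CPM in iKD2 Dox+, 26.9 and 13.0 CPM in iKD2 Dox-, and 36.4 and 51.1 CPM in iSCR Dox+. MX2, its paralogue, was at 16.3, 3.62 and 6.92 CPM in iKD2 Dox+, 8.96 and 7.24 CPM in iKD2 Dox-, and 23.8 and 2.21 CPM in iSCR Dox+. The groups overlapped for both, except that the lower iSCR Dox+ value of MX1 was above both iKD2 Dox- values.

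The ubiquitin-like modifier ISG15, its protease USP18 and the exonuclease ISG20 had their lowest group mean in iKD2 Dox-, although the control groups overlapped for USP18. ISG15 was at 12.7, 6.93 and 7.49 CPM in iKD2 Dox+, 2.53 and 1.69 CPM in iKD2 Dox-, and 7.38 and 10.5 CPM in iSCR Dox+. ISG20 was at 20.4, 14.1 and 12.5 CPM in iKD2 Dox+, 6.97 and 2.89 CPM in iKD2 Dox-, and 16.5 and 19.3 CPM in iSCR Dox+. For both genes the iKD2 Dox- values were below those of all other libraries, and neither gene passed an unadjusted p of 0.05. How many of all genes have this order was not counted, so that it is a description that supports no difference. USP18, which also dampens interferon receptor signalling, was at 23.9, 17.2 and 13.6 CPM in iKD2 Dox+, 9.01 and 4.14 CPM in iKD2 Dox-, and 11.3 and 7.16 CPM in iSCR Dox+. USP18 was the only effector whose iKD2 Dox+ libraries all lay above the 4 controls, with group means of 18.2 ± 5.21 (SD, n = 3), 6.58 ± 3.45 (n = 2) and 9.23 ± 2.93 CPM (n = 2).

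The IFITM proteins restrict viral entry at membranes, and their genes are near-identical copies on chromosome 11, where IFITM1 and IFITM2 also overlap in the annotation, so that the division of reads between them is uncertain. IFITM2 was at 23.7, 7.49 and 9.32 CPM in iKD2 Dox+, 8.62 and 3.98 CPM in iKD2 Dox-, and 0 and 1.40 CPM in iSCR Dox+. Its log2 fold change against iSCR Dox+ was 4.25 (SE 1.99, unadjusted p = 0.0444, adjusted p = 0.699), with a 95% interval from 1.09 to 334-fold. IFITM1 was at 10.5, 6.99 and 7.78 CPM in iKD2 Dox+, 0.828 and 0.871 CPM in iKD2 Dox-, and 10.6 and 0.669 CPM in iSCR Dox+. The iSCR Dox+ a library was therefore level with iKD2 Dox+, and the other controls were below 1 CPM. IFITM3 was at 15.6, 31.8 and 12.1 CPM in iKD2 Dox+, 10.1 and 14.5 CPM in iKD2 Dox-, and 25.7 and 32.7 CPM in iSCR Dox+, so that iKD2 Dox+ overlapped with both controls while the controls did not overlap with each other.

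BST2 (tetherin), which holds budding virus at the cell surface, was the effector with an unadjusted p under 0.05 and a lower level in iKD2 Dox+, against iSCR Dox+. Levels were 0 in all iKD2 Dox+ libraries, 0.828 and 0.327 CPM in iKD2 Dox-, and 0 and 8.69 CPM in iSCR Dox+. The difference (at least 24.2-fold lower by group mean, unadjusted p = 0.0344, adjusted p = 0.699) rested on iSCR Dox+ b, since without that library both groups were at 0. BST2 passed the filter on low counts only through control libraries.

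The other effectors above 5 CPM had scattered values. IFIT5, which binds RNA ends, was at 38.3, 8.86 and 13.0 CPM in iKD2 Dox+, 31.3 and 9.97 CPM in iKD2 Dox-, and 16.1 and 11.0 CPM in iSCR Dox+. XAF1, a pro-apoptotic factor, was at 6.64, 18.4 and 10.8 CPM in iKD2 Dox+, 7.89 and 16.2 CPM in iKD2 Dox-, and 11.2 and 40.4 CPM in iSCR Dox+. HERC6, a ubiquitin ligase family member, was at 6.04, 25.8 and 16.5 CPM in iKD2 Dox+, 27.5 and 5.99 CPM in iKD2 Dox-, and 17.7 and 0.0669 CPM in iSCR Dox+. The highest and the lowest HERC6 values were thus both in control libraries. DDX60, a helicase linked to RIG-I signalling, was at 0, 3.18 and 10.6 CPM in iKD2 Dox+, 6.43 and 1.91 CPM in iKD2 Dox-, and 23.1 and 10.1 CPM in iSCR Dox+. SAMD9, an antiviral protein of the cytoplasm, was at 2.03, 0.25 and 14.7 CPM in iKD2 Dox+, 3.02 and 0 CPM in iKD2 Dox-, and 6.57 and 12.6 CPM in iSCR Dox+. IFI35 was at 15.6, 2.93 and 3.20 CPM in iKD2 Dox+, 0.0487 and 5.83 CPM in iKD2 Dox-, and 0.271 and 12.4 CPM in iSCR Dox+. In none of these 6 genes did a group lie apart from both others.

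The remaining effectors below 5 CPM, other than BST2, were 7 genes. IFIT1, IFIT2, IFIT3, IFI27, IFI44 and IFI44L had means between 0.227 (IFI44) and 2.64 CPM (IFIT3), and the highest value of any of them in a library was 8.22 CPM (IFI44L in iKD2 Dox- c). IFIT1 was at 0 in 4 of 7 libraries and at 0.0572 CPM or less in all iKD2 Dox+ libraries. HERC5, the ligase for ISG15, was at 16.1 CPM in iSCR Dox+ a and at or below 1.47 CPM in the other 6 libraries.

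Of the antigen presentation genes, B2M, the light chain of MHC class I, was the most abundant. Levels were 66.3, 17.8 and 52.2 CPM in iKD2 Dox+, 34.9 and 39.8 CPM in iKD2 Dox-, and 53.8 and 27.0 CPM in iSCR Dox+, and the lowest and highest values were both in iKD2 Dox+. HLA-E, a class I molecule read by natural killer cells, was at 5.20, 4.80 and 0 CPM in iKD2 Dox+, 22.2 and 0.327 CPM in iKD2 Dox-, and 49.4 and 40.9 CPM in iSCR Dox+. Both iSCR Dox+ libraries were above the other 5, without an unadjusted p under 0.05. TAP1, a subunit of the peptide transporter, was at 15.6, 1.37 and 6.35 CPM in iKD2 Dox+, 3.99 and 1.42 CPM in iKD2 Dox-, and 26.9 and 3.68 CPM in iSCR Dox+, with overlapping groups. HLA-B was at 13.1 CPM in iKD2 Dox+ b, at 3.48 CPM in iSCR Dox+ b and at or below 0.343 CPM in the other 5. TAP2, the immunoproteasome subunits PSMB8 and PSMB9, and HLA-C had means between 0.0463 and 1.27 CPM.

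The levels of the MHC genes have a further limit. The table holds 6656 IDs, with 2.85% to 3.24% of the counts of a library, that are in neither name source used here. Ensembl gives separate IDs to copies of MHC genes on alternate haplotypes, and a read that fits several copies is divided by the counting method, so that these values describe the main ID only. Without the 8 antigen presentation genes, the median log2 fold change of the remaining 37 tested genes was 0.60, 0.20 and -0.33 in the 3 comparisons. None of these 8 genes passed an unadjusted p of 0.05, so that leaving them out could not change the counts of 1, 4 and 0 members.

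The scatter of the members between libraries followed their level. In the 2 members with a mean of at least 100 CPM (ADAR and MAVS) the median CV over 7 libraries was 19.9%, against 20.7% for all 1877 genes at that level. For 8 members from 20 to 100 CPM it was 38.0%, against 38.4% for 6727 genes. Members from 5 to 20 CPM (19 genes) had a median CV of 82.7% where all 5815 genes had 70.8%, and 6 of the 19 were above the upper quartile of 91.7%. Below 5 CPM the medians were 165% for 14 members and 144% for 8507 genes.

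**Figure D4:**
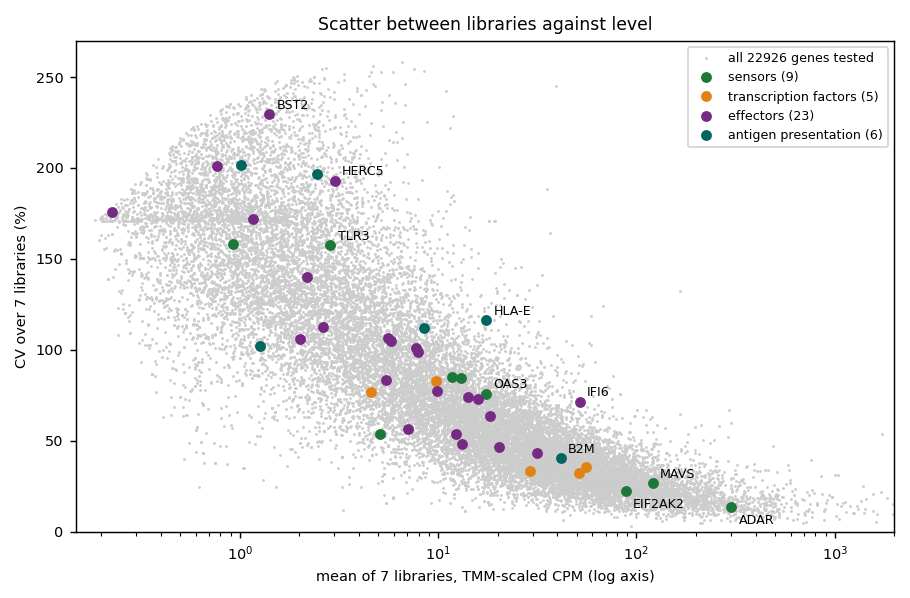
The coefficient of variation over the 7 libraries is plotted against the mean level on a log axis for all 22926 genes tested (grey) and for the 43 members tested, coloured by class. Members follow the grey cloud, with ADAR at 13.3% and BST2 at 229%, and HLA-E and IFI6 lie toward its upper edge for their level.

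The library with the highest level differed between members. The highest of the 7 values was in iKD2 Dox+ a for 12 of the 43 tested members, in iKD2 Dox+ b for 3 and in iKD2 Dox+ c for 9. It was in iSCR Dox+ a for 8, in iSCR Dox+ b for 6, and in iKD2 Dox- b and c for 4 and 1. Over all genes the corresponding shares were 16.2%, 12.5% and 13.7% for iKD2 Dox+, 18.0% and 15.4% for iSCR Dox+ and 11.4% and 12.7% for iKD2 Dox-, and 27.9% of members peaked in iKD2 Dox+ a. The number of the 47 members at 0 was 10, 9 and 4 in iKD2 Dox+, 7 and 8 in iKD2 Dox-, and 15 and 8 in iSCR Dox+. Summed over the 11 sensors, the level was 576 to 617 CPM in iKD2 Dox+, 528 and 601 CPM in iKD2 Dox-, and 514 and 523 CPM in iSCR Dox+. ADAR, MAVS and EIF2AK2 held most of these sums, so that they say little of the other sensors. Summed over the 23 effectors the level was 219 to 298, 126 to 220 and 242 to 325 CPM, with the highest sum in iSCR Dox+ b.

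Genes with the response element outside the list were examined in the same fits. Of all tested genes with a promoter window, 1212 held the core and 12387 did not. The median log2 fold change was 0.05 with and 0.03 without the core against iKD2 Dox-, 0.09 and 0.06 against iSCR Dox+, and 0.00013 and 0.04 between the controls. The share at an unadjusted p of 0.05 and higher in iKD2 Dox+ was 2.56% with and 2.26% without the core against iKD2 Dox-, and 3.38% and 4.46% against iSCR Dox+. Among the members, the 24 with the core had medians of 0.74, 0.03 and -1.38 in the 3 comparisons, and 11 tested members with a window and no core had 0.14, 0.35 and 0.21.

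The rest of the pathway was read from a list of 53 further genes, of which 42 passed the filter. The 7 interferon genes of this list (IFNB1, IFNE, IFNK, IFNL1, IFNL2, IFNL3 and IFNG) were at 0 in all 7 libraries, as were the chemokine genes CXCL10 and CXCL11. The median log2 fold change of the 42 genes was 0.09, 0.22 and 0.19 in the 3 comparisons, and that of all genes 0.01, 0.08 and 0.04. By class, medians ran from -0.31 to 0.98 against iKD2 Dox- and from -0.26 to 1.16 against iSCR Dox+. The highest of both were those of 8 other interferon-stimulated genes, whose median between the controls was 0.09. This class was picked as the highest, and it holds CMPK2, which passed the filter only through iKD2 Dox+. The 23 effectors, which are interferon-stimulated as well, had medians of 0.65, -0.19 and -1.11 in the 3 comparisons. Whether the 8 genes differ from other genes was not tested. No gene of the list passed an adjusted p of 0.05 in edgeR. At an unadjusted p of 0.05, 3 were higher and 0 lower in iKD2 Dox+ than in iKD2 Dox- (CMPK2, PARP14 and TAPBP). Of all genes, 2.04% were higher and 1.67% lower. Against iSCR Dox+, 2 were higher and 0 lower (CALR and IFNLR1), with 3.94% and 2.78% of all genes. Between the controls 1 was higher (PARP9) and 1 lower (TAPBP) in iKD2 Dox-, with 2.66% and 1.79% of all genes.

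Of these, PARP14, an interferon-induced ADP-ribosyltransferase, was at 82.6, 79.4 and 64.8 CPM in iKD2 Dox+, 37.7 and 27.8 CPM in iKD2 Dox-, and 40.7 and 72.8 CPM in iSCR Dox+, and its log2 fold change against iKD2 Dox- was 1.21 (SE 0.44, adjusted p = 1). TAPBP (tapasin), which loads peptides on class I molecules, was at 73.5, 89.1 and 21.7 CPM in iKD2 Dox+, 1.02 and 8.28 CPM in iKD2 Dox-, and 80.8 and 35.7 CPM in iSCR Dox+, and its log2 fold change was 3.72 (SE 0.92, adjusted p = 0.545) against iKD2 Dox- and -3.65 (SE 0.95, adjusted p = 0.701) between the controls. TAPBP lies in the MHC region, so that the limit on haplotype copies holds for it too. CMPK2, a mitochondrial nucleotide kinase, was at 9.57, 8.42 and 2.97 CPM in iKD2 Dox+, 0 in both iKD2 Dox- libraries, and 0 and 1.27 CPM in iSCR Dox+. By group mean it was at least 45.2-fold higher than iKD2 Dox-, which does not hold for iKD2 Dox+ c alone. CMPK2 passed the filter on low counts only through iKD2 Dox+, the group where it is high, so that its entry supports no difference. IFNLR1, the receptor chain of type III interferons, was at 26.3, 39.1 and 22.3 CPM in iKD2 Dox+, 22.0 and 11.2 CPM in iKD2 Dox-, and 7.58 and 0.134 CPM in iSCR Dox+, and its log2 fold change against iSCR Dox+ was 2.92 (SE 1.15, adjusted p = 0.691). CALR (calreticulin), a chaperone of class I molecules, was at 1168, 1145 and 1183 CPM in iKD2 Dox+, 1026 and 810 CPM in iKD2 Dox-, and 1001 and 819 CPM in iSCR Dox+, a log2 fold change against iSCR Dox+ of 0.36 (SE 0.17, adjusted p = 0.699). PARP9 was at 14.3, 24.0 and 13.7 CPM in iKD2 Dox+, 28.7 and 32.3 CPM in iKD2 Dox-, and 5.28 and 7.69 CPM in iSCR Dox+, and the controls differed by 2.23 on the log2 scale (SE 0.92, adjusted p = 0.826). Its iKD2 Dox+ values lay between those of the control groups.

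In this list, all 3 iKD2 Dox+ libraries were above the 4 controls for 6 of 42 genes (IFNLR1, RSAD2, CMPK2, SP100, PSMB10 and CALR) and below them for 2 (IFNAR1 and DHX9), against the shares of 3.47% and 2.83% of all genes given above. CMPK2, at 0 in 3 of the 4 controls, again passed the filter only through iKD2 Dox+. SP100, a component of nuclear bodies, was at 12.3, 7.99 and 14.6 CPM in iKD2 Dox+, 3.65 and 3.21 CPM in iKD2 Dox-, and 3.45 and 3.21 CPM in iSCR Dox+, without an unadjusted p under 0.05. IFNAR1, a chain of the type I interferon receptor, was at 29.01, 32.6 and 33.2 CPM in iKD2 Dox+, 48.7 and 48.6 CPM in iKD2 Dox-, and 35.7 and 39.4 CPM in iSCR Dox+.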

How the data were processed

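RNA-seq was performed on 7 libraries made from sorted cells with a stranded total-RNA kit. Per the submitters' processing notes and the study's methods, reads were trimmed with fastp, transcripts were quantified with Kallisto and summed to genes. The authors deposited an estimated count for each gene and library, without scaling for depth. Versions, genome build and strand setting are not given in the sources used here. Without the strand setting, antisense genes cannot be told apart.

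After rounding, filterByExpr (by group) left 22926 genes. The robust quasi-likelihood test of edgeR 4.0.16 was run in R 4.3.3 with TMM scaling, 3 groups in 1 fit and adjustment over all genes tested. A standard error is the size of the log2 fold change over √F. Levels are TMM-scaled CPM, floors are 3 counts per library and cover counting error only. Exon lengths are from GENCODE 29. The script was tested on simulated data. Members, lists and tests were chosen with earlier results of these data known. Levels are given in all libraries for members with a mean of at least 5 CPM or an unadjusted p under 0.05, fold changes for the latter and for IFIH1, RIGI, EIF2AK2 and ADAR. The genes described from the further list were those past the unadjusted threshold and, chosen after their values were seen, SP100 and IFNAR1. Groups came from the sample titles. The squared difference between libraries of a group was, in the median gene, 97.8 to 163 times that expected from counting noise. This is more than expected for 1 library sequenced again, and it does not tell whether libraries came from separate differentiations. Alternatives were DESeq2 1.42.0, limma voom 3.58.1, other scalings and filters, a replicate block, other groupings of the samples and leaving out each library; leaving out the antigen presentation genes was chosen after seeing the data.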

Additional observations from a re-analysis of the deposited data

How the results depend on the processing

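The common biological CV was 1.14, and depth limits what can be shown of genes below 5 CPM. Against iKD2 Dox-, members at an unadjusted p of 0.05 numbered 7 of 43 with DESeq2 (8.66% of all genes under that tool). They numbered 2 with limma voom (5.34%) and 2 with a replicate block by letter (2.60%), where the report gives 1. Without iKD2 Dox+ a, b and c they numbered 1 of 41 (2.75% of all genes), 0 of 40 (3.19%) and 0 of 40 (3.06%). Against iSCR Dox+ they numbered 7 with DESeq2 (15.04% of all genes) and 2 of 29 with a minimum mean of 5 CPM (7.10%). They numbered 2 with the block (5.44%) and 1 of 36 with the 4 controls as 1 group (4.58%), where the report gives 4. Without iKD2 Dox+ a, b and c they numbered 2 of 41 (5.78% of all genes), 2 of 40 (5.54%) and 1 of 40 (5.23%). Between the controls they numbered 5 with DESeq2 (12.0%), 2 with limma voom (6.04%) and 1 of 36 with only the groups compared (4.66%), where the report gives 0. Without iKD2 Dox+ a, b and c they numbered 1 of 41 (4.81% of all genes), 0 of 40 (3.89%) and 0 of 40 (3.89%). At an adjusted p of 0.05, 2 members were called against iSCR Dox+ with DESeq2 (adjusted p 0.0236 for TLR3 and 0.047 for IFITM2), where 3.91% of all genes were. Without iKD2 Dox+ a, b or c, 0 were called in each comparison (at most 0.0546% of all genes). Where 1 library of a group was left, it was assumed to vary like the other groups. This was so without any control library, and counts of members passing in such fits are not given. Deviations of same-letter libraries from their group means correlated at -0.01 to 0.01. In a group of 2 libraries these deviations mirror each other, so that the values cannot settle whether a shared letter pairs libraries.

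The sign of some fold changes turned. RIGI fell to -1.19 and -2.03 against iKD2 Dox- and iSCR Dox+ with limma voom and to -2.81 against iSCR Dox+ with the replicate block. IFIH1 between the controls was 0.65 with limma voom, EIF2AK2 between the controls 0.052 with the block, and ADAR 0.051 against the 4 controls as 1 group. Leaving out 1 library gave -0.48 to 1.15, -0.72 to 3.12 and -1.12 to 2.46 for IFIH1 in the 3 comparisons, -0.58 to 1.64 against iSCR Dox+ and -2.41 to 0.58 between the controls for RIGI, and -0.27 to 0.10 for EIF2AK2 against iKD2 Dox-. OAS3 kept its direction in 17 of 17 alternatives, STAT2 and IFITM2 in 17 of 17 and TLR3 in 16 of 16. The median of all members against iKD2 Dox- ran from 0.13 to 1.26. The cause of these shifts was not tested.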
